A study of Mus musculus with 6 samples.

Results

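The data described here are the 3 libraries labelled HFD 1, HFD 2 and HFD 3, out of 6 bulk RNA sequencing libraries in the series. All 3 came from white adipose tissue of mice of WT genotype kept on a high-fat diet (HFD) without a further treatment, and the labels give the cell type as macrophages. The text on the study's design names a cell sort for the surface proteins F4/80 and CD11b, while the extraction protocol speaks of RNA from the tissue, taken up in TRIzol and turned into libraries from 10 ng of RNA with the SMART-Seq v4 kit, which amplifies the cDNA of small inputs. The other 3 libraries, labelled HFD+MGIG, were not analysed here. Strain, sex, age, length of the diet, fat depot, number of animals and sequencing batch were not found in the labels, and nothing says that the 3 libraries came from separate animals. The errors given as ± are therefore SDs between 3 libraries, which may in part be technical, and no lean group was analysed here, so that nothing here tells what the diet changed.

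Adipose tissue macrophages take up lipid, clear dying cells and shape the local inflammatory tone, and their number and state are known to shift as fat tissue expands. A resident population lies along blood vessels and is known by the receptors Lyve1, Folr2 and Timd4, while lipid-associated macrophages of obese fat are known by Trem2, Cd9, Gpnmb and Spp1. Inflammatory macrophages are classically marked by Nos2, Tnf and Il1b, and alternatively activated ones, driven by interleukin 4 and its transcription factor STAT6, by Arg1, Retnla, Chil3 and Mrc1. These names come from other studies and serve here only to order the genes.

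Levels are given on 2 scales. CPM is the count of a gene per 1000000 counts of its library, and TPM is the same after division by the gene's exon length, scaled again to the same total, and TPM is used to set the level of 1 gene beside another. Ranks are given by CPM, where a longer gene collects more counts, unless TPM is named. The libraries held 16740374, 14437531 and 16098390 counts, of which protein-coding genes took 95.3, 95.0 and 96.1%. Between 26070 and 29796 genes had at least 1 count per library, and 14073 had at least 1 CPM in all 3 libraries. Gene families taken here as silent in macrophages (olfactory, vomeronasal and taste receptors, keratin-associated proteins and beta-defensins, 1878 genes), called the silent families, took 0.0626, 0.282 and 0.117% of counts in HFD 1, 2 and 3. The level under which 90% of these genes lay was 0.326, 1.16 and 0.605 TPM, and it is called the background level of a library below. HFD 2 was the highest of the 3 in both measures. The share of all genes above the background level is not reported here. Counts of list members above it are thus no sign that a list stands out from other genes.

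The sort markers were present in all 3 libraries. Adgre1, which encodes F4/80 (ENSMUSG00000004730; mm10 chromosome 17, 57358691 to 57483527), stood at 410.1, 484 and 506 TPM in HFD 1, 2 and 3 (467 ± 50.2, n = 3). Itgam, which encodes the integrin chain CD11b (ENSMUSG00000030786; mm10 chromosome 7, 128062640 to 128118491), stood at 113, 129 and 189 TPM, lowest in HFD 1 and highest in HFD 3. Csf1r, the receptor of the growth factor that macrophages depend on (ENSMUSG00000024621; mm10 chromosome 18, 61100598 to 61132149), stood at 638, 856 and 912 TPM. Mrc1, the mannose receptor (ENSMUSG00000026712; mm10 chromosome 2, 14229392 to 14332057), stood at 432, 483 and 616 TPM. These 4 genes shared an order, with HFD 1 lowest and HFD 3 highest in each. Cd74, the invariant chain that escorts class II molecules (ENSMUSG00000024610; mm10 chromosome 18, 60803848 to 60812652), was highest in HFD 2, at 20885, 26361 and 23060.2 TPM. All 20 genes of a macrophage identity list lay above the background level in each library, and together they made up 51134 ± 3976 TPM. Of these 20 genes, 14 had their lowest CPM in HFD 1, against 34.8% of the 9445 genes with a mean of at least 10 CPM, and 13 had their highest in HFD 3, against 35.1%. Cd68, a lysosomal glycoprotein of macrophages, varied least of the list, at 1812, 1892 and 1991 TPM. Cx3cr1, the fractalkine receptor, was the least abundant, at 5.49, 8.03 and 9.06 TPM.

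The ratios among these markers within a library do not depend on the scaling between libraries. Per length, Csf1r stood at 1.56, 1.77 and 1.80 times Adgre1 in HFD 1, 2 and 3, Mrc1 at 1.05, 0.999 and 1.22 times, and Itgam at 0.275, 0.267 and 0.373 times. The Itgam ratio was thus close in HFD 1 and HFD 2 and highest in HFD 3. The ratio of Ccr2, the chemokine receptor of recruited monocytes, to Adgre1 had the smallest highest-over-lowest value of the 26 single-gene ratios computed, at 0.218, 0.215 and 0.213. Ly6c2, a surface protein of classical monocytes, stood at 0.0302, 0.0392 and 0.0379 times Adgre1.

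Transcription factors of the lineage were present as well, each of the 16 listed above the background level in every library. Maf, a leucine zipper factor, stood at 28.6, 32.6 and 29.1 TPM. Cebpb, an inflammatory transcription factor, was the most abundant of the list and highest in HFD 1, at 1212, 723 and 845 TPM. Of the Toll-like receptors, which sense microbial products, Tlr2 stood at 196, 296 and 259 TPM and Tlr4 at 45.1, 53.0 and 73.6 TPM, both lowest in HFD 1. Of the 14 Toll-like receptors and adaptors listed, 10 were lowest in HFD 1, or 71.4%, against 34.8% of all genes with a mean of 10 CPM or more. Of the cell cycle genes, Mki67, an antigen of dividing cells, stood at 8.62, 7.74 and 6.45 TPM and Top2a, a topoisomerase of dividing cells, at 8.63, 8.91 and 5.88 TPM. All 14 cell cycle genes lay above the background level in each library, and together they took 0.0398% of counts on average.

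Promoter sequence is shown for 3 of the identity genes because the myeloid transcription factor PU.1, the product of Spi1, is known to bind GAGGAA boxes near the start of macrophage genes. Spi1 itself stood at 144, 141 and 144 TPM. The stretches below are the bases before the gene start in the RefSeq promoter table (build GRCm38.p6), read in the direction of transcription and ended before any annotated exon. Capitals mark each GAGGAA or its reverse complement TTCCTC. They lie at chr7:128062390-128062639 (plus strand) for Itgam, chr2:14229164-14229391 (plus strand) for Mrc1 and chr11:69666171-69666420 (minus strand) for Cd68.
Itgam: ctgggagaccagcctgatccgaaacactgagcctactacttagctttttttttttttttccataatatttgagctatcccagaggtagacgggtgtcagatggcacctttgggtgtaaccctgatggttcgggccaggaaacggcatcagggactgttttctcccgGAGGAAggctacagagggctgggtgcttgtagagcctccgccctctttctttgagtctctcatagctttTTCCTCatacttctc
Mrc1: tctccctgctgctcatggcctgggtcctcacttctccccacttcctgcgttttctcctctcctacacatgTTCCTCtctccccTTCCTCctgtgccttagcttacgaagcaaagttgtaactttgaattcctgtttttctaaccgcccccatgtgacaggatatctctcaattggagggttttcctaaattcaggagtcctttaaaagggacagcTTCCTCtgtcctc
Cd68: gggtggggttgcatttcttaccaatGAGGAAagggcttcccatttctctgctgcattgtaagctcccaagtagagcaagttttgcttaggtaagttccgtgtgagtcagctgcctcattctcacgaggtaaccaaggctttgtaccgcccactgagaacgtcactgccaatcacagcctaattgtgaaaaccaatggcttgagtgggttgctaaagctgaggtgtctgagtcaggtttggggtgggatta
Itgam held 2 matches, Mrc1 held 3 and Cd68 held 1. Of the 20 identity genes 13 had an entry in that table, and 7 of the 13 held the box in the 250 bases before their start, beside 6252 of all 27025 promoters (23.1%). A match to so short a word is a description of the letters and no evidence of binding.

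**Figure D1:**
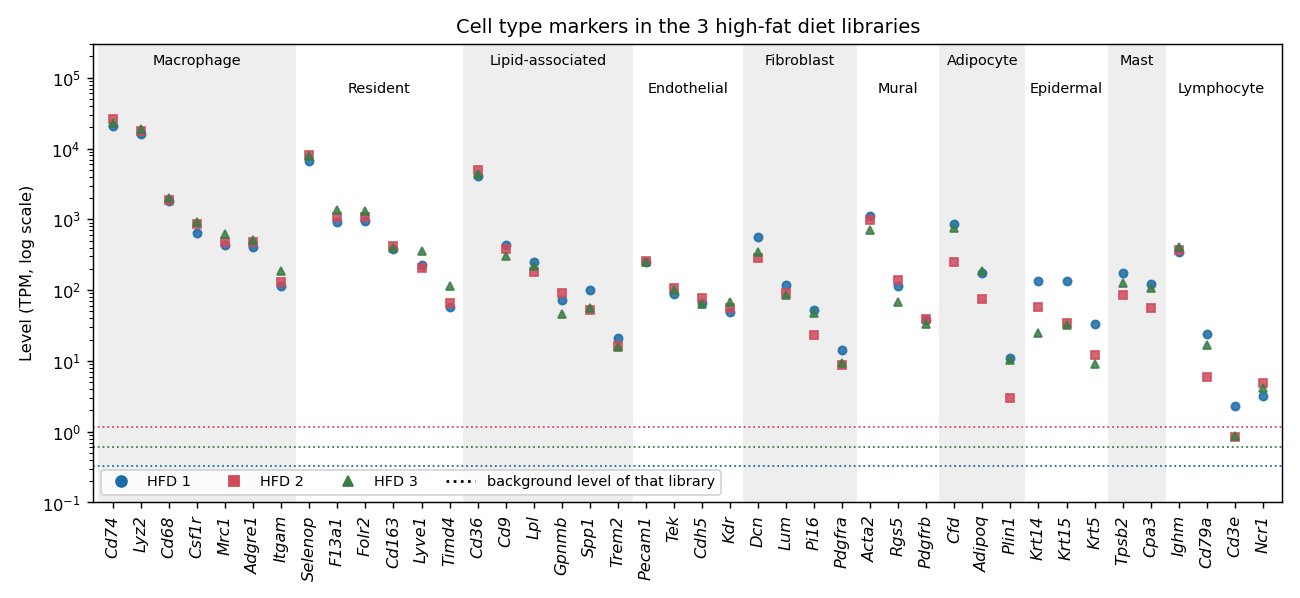
Level of marker genes in the 3 high-fat diet libraries, as TPM on a log scale, 1 point per library, grouped by the cell type each gene is known to mark. Dotted lines are the background level of each library. Cd74 and Lyz2 are the highest points in every library, and the HFD 2 point of Cd3e lies below the background level of HFD 2.

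Counts were concentrated in few genes, and to a like degree in each library. The 10 most abundant genes took 8.14, 8.35 and 8.50% of counts in HFD 1, 2 and 3, the 100 most abundant took 28.8, 28.4 and 28.4%, and 575, 590.0 and 588 genes were needed to reach 50% of counts. Of the 20 genes with the highest CPM in each library 16 were shared by all 3, as were 87 of the 100 highest and 430 of the 500 highest. Cd74 had rank 1 by CPM in every library, at 12359, 14995 and 12899 CPM. Lyz2, the lysozyme of myeloid cells, ranked 4 by mean CPM at 7451, 7785 and 8406 CPM. Selenop, a secreted selenium carrier, ranked 7 at 6725, 7859 and 7333 CPM. Among the 100 genes with the highest mean TPM were 5 of the 20 identity genes, 10 of 17 early response genes, 7 of 20 lysosome genes and 9 of 13 mitochondrially encoded protein genes. Of genes of other cell types, 3 of 10 red cell and platelet genes and 1 of 20 fibroblast genes were among them, and 0 of 21 endothelial, 13 pericyte and 14 T cell genes.

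**Figure D2:**
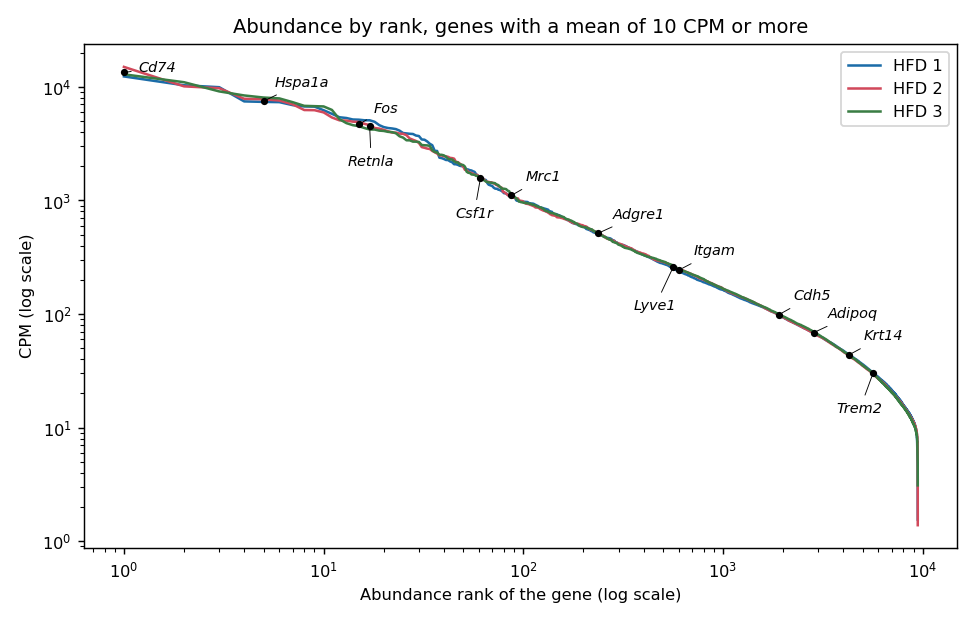
CPM of each gene against its abundance rank within a library, both on log scales, 1 line per library, for genes with a mean of at least 10 CPM. Black points are named genes at their mean CPM and its rank. The 3 lines lie on each other over most of the range, and Adgre1 and Itgam sit at ranks 237 and 604.

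Cd74 and Retnla had the highest mean TPM of all genes. Retnla, a secreted resistin-like protein of alternative activation (ENSMUSG00000061100; mm10 chromosome 16, 48842551 to 48844461), stood at 20973, 22678 and 22602 TPM and had rank 2 by TPM in each library. It made up 91.6% of the summed TPM of the 12 alternative activation genes, 24108 ± 1180.1 TPM. The other members did not share its level. Arg1, which breaks down arginine, stood at 5.25, 3.21 and 2.51 TPM, and Chil3, a chitinase-like protein, at 18.6, 20.2 and 28.4 TPM. The level of Retnla was 3996, 7061 and 9002 times that of Arg1 in HFD 1, 2 and 3, a ratio that rests on 69, 35 and 30 counts of Arg1. Nos2, the enzyme that makes nitric oxide from the same amino acid, stood at 3.65, 3.38 and 3.38 TPM, or 0.695, 1.05 and 1.35 times Arg1. Both enzymes were thus among the low genes of these libraries, at ranks 11476 and 11644 by mean TPM. Il4ra, a chain of the interleukin 4 receptor, stood at 108, 115 and 122 TPM, and Clec10a, a lectin of alternatively activated cells, at 455, 419.9 and 494 TPM.

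The stretch before the start of Retnla is shown because it holds the core of a STAT6 site, the letters TTC and GAA with any 4 bases between them. It lies at chr16:48842359-48842550 on the plus strand of GRCm38.p6 (RefSeq), ends before any annotated exon, and has the match in capitals.
Retnla: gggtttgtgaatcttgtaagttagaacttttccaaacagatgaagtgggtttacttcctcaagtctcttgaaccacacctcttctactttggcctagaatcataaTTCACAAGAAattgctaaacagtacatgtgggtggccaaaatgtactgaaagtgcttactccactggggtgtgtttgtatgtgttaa
The pattern is its own reverse complement, so both strands give the same matches. Of 12 alternative activation genes 9 had a promoter entry and 4 of the 9 held it (Ccl17, Clec7a, Pdcd1lg2 and Retnla), beside 1585 of 27025 promoters (5.86%). Ccl17 and Pdcd1lg2 were low, at CPM ranks 12335 to 15938 and 14476 to 19101 in single libraries, while Clec7a ranked 857 to 1646. As for the PU.1 box, such a match describes the letters and is no evidence of binding.

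Markers of resident macrophages were spread over a wide range. Folr2, a folate receptor, stood at 951, 1084 and 1307 TPM and F13a1, a clotting factor chain made by resident macrophages, at 929, 1093 and 1364 TPM. Lyve1, a receptor for hyaluronan, stood at 226, 204 and 359 TPM, and Timd4, a receptor for phosphatidylserine on dying cells, at 57.9, 66.1 and 113 TPM. All 4 were highest in HFD 3. Cd163, the scavenger receptor for haemoglobin, did not follow them and varied little, at 384, 423 and 399 TPM. All 18 resident genes that could be matched lay above the background level in each library, and 10 of the 18 had their highest CPM in HFD 3, against 35.1% of all genes with a mean of at least 10 CPM.

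Of the markers of lipid-associated macrophages, Trem2, Gpnmb and Spp1 stood below Folr2 and Lyve1 in every library. Against Timd4 the order was mixed, since Gpnmb exceeded it in HFD 1 and HFD 2 and Spp1 in HFD 1. Cd9 exceeded Timd4 in every library and Lyve1 in HFD 1 and HFD 2. Trem2, a lipid-sensing receptor, stood at 21.0, 16.4 and 15.8 TPM. Gpnmb, a membrane glycoprotein of lipid-laden macrophages, stood at 72.0, 91.5 and 46.3 TPM and Spp1, osteopontin, at 102, 52.0 and 56.7 TPM. Cd9, a tetraspanin, was the highest of the 4, at 438, 382 and 301 TPM. Trem2 was 0.0932, 0.0806 and 0.0441 times Lyve1 and Gpnmb 0.319, 0.449 and 0.129 times, lowest in HFD 3 for both. Itgax, which encodes CD11c, stood at 7.59, 10.9 and 8.07 TPM. The sums of the 2 lists gave another picture, since the lipid-associated list also holds Cd36, a fatty acid transporter at 4081, 4901 and 4342 TPM, and Fabp4, a fatty acid binding protein at 2686, 1913 and 1769 TPM. Adipocytes and endothelium are known to express these 2 genes as well. The summed TPM of the lipid-associated list was 1.02, 0.921 and 0.884 times that of the resident list in HFD 1, 2 and 3. The direction of this ratio turned with the choice of scale and members. It was 1.44 with CPM in place of TPM and 1.21 without Selenop and Cd36. Over the defining markers alone of both lists, a choice made after the data were seen, it was 0.251.

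Genes of antigen presentation were abundant. The class II chains H2-Ab1 and H2-Eb1 stood at 4800.0, 5803 and 4786 TPM and 4475, 5072 and 4279 TPM, and Ciita, the factor that switches class II genes on, at 17.1, 24.9 and 24.3 TPM. Of 10 class II genes 7 had their highest CPM in HFD 2, against 26.1% of all genes with a mean of at least 10 CPM. B2m, the light chain of class I, stood at 7656, 8561 and 8819.7 TPM, and 9 of 11 class I genes were highest in HFD 3, against 35.1% of all genes. Complement C1q, which opsonises debris and is made by macrophages, was measured through C1qa, C1qb and C1qc. C1qb was the highest of them, at 4221, 3959 and 4539 TPM, and C1qc varied little, at 1828, 1812 and 1957 TPM. Of 11 complement genes 9 had their highest CPM in HFD 3 and 7 their lowest in HFD 2, where 35.1% and 33.0% of all genes did. C3, which fibroblasts and adipocytes also make, was 78.4, 37.7 and 93.8 TPM, lowest in HFD 2.

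Of 20 lysosome genes 15 were among the 500 genes with the highest mean TPM, as were 4 of 10 iron and 5 of 17 lipid genes. All 20 lysosome genes passed the background level in each library and summed to 20487 ± 2179.9 TPM, with 15 of 20 lowest in HFD 1 and 14 of 20 highest in HFD 3, where 34.8% and 35.1% of all genes with a mean of at least 10 CPM were. Psap, the precursor of the saposins that present lipids to lysosomal enzymes, stood at 2825, 3079.5 and 3579.9 TPM, and the protease gene Ctsb at 2495, 3041 and 3378 TPM. Ftl1, the ferritin light chain, stood at 14187, 13779.6 and 14047 TPM, and its highest CPM was 1.07 times its lowest. A ferritin pseudogene, Ftl1-ps1, shares 73.4% of the 50-base windows of Ftl1, so the split of reads between them is uncertain. Hmox1, which frees iron from heme, stood at 1596, 1909 and 2176 TPM, and Slc40a1, the iron exporter ferroportin, at 40.0, 72.6 and 58.7 TPM. Apoe, which carries cholesterol out of macrophages, stood at 8268, 6787 and 9509.9 TPM, lowest in HFD 2, as were 11 of 17 lipid genes, against 33.0% of all genes. Of 18 adipocyte genes 15 were also lowest in HFD 2, the lipid list holds genes that adipocytes express, such as Lipe and Pparg, and their part in this count was not tested.

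Chemokine transcripts were high and cytokine transcripts moderate. Ccl6, a macrophage chemokine, stood at 3592, 3577 and 4221 TPM. Ccl2, which recruits monocytes, stood at 1016, 1287 and 1126 TPM, and Cxcl2, which recruits neutrophils, at 1955, 1955 and 2070.2 TPM. The highest CPM over the lowest was 1.16 for Ccl6, 1.22 for Ccl2 and 1.04 for Cxcl2. Il6 was the highest of the classical cytokines named here, at 542, 534 and 415 TPM. Tnf stood at 179.6, 266 and 192 TPM and Il1b at 175, 248 and 222 TPM, both highest in HFD 2, while Il10, an anti-inflammatory cytokine, stood at 124, 173 and 179 TPM. Of the 15 inflammatory cytokine and enzyme genes 14 lay above the background level in every library, and 7 were highest in HFD 2, against 26.1% of all genes. Myd88, the adaptor that carries signals from most Toll-like receptors, had 138, 138 and 138 CPM, the smallest CV (SD over mean) of protein-coding genes with a mean of at least 100 CPM.

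Early response genes, which cells switch on within minutes of a stimulus, belonged to the most abundant transcripts. Fos stood at 6204, 5939 and 5377 TPM, Dusp1, a phosphatase that ends kinase signals, at 3689, 3458 and 2986 TPM, and Egr1 at 2095, 2251 and 2045 TPM. The 17 genes of the list summed to 33395 ± 2509.8 TPM, and 13 of the 17 had their lowest CPM in HFD 3, against 32.2% of all genes with a mean of at least 10 CPM. Heat shock genes had the opposite order in part. The 10 genes, which encode chaperones that refold proteins, summed to 24211 ± 2155 TPM, and 8 of the 10 were highest in HFD 3, against 35.1% of all genes. Genes of both lists are known to respond to tissue dissociation as well, and no undissociated sample was analysed here. The letters TGACGTCA, a palindrome known as the cAMP response element, were in 2 of 15 early response promoters (Btg2 and Dusp1) beside 1.62% of all promoters. A heat shock element of 3 units (GAA, TTC and GAA, or TTC, GAA and TTC, each 2 bases apart) was in 1 of 7 heat shock promoters (Hspe1) beside 108 of all 27025. These matches too are no evidence of binding.

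Hspa1a and Hspa1b, inducible chaperones of the HSP70 family, could not be measured apart. They stood at 7054, 6981 and 8153 TPM and 6993, 7989 and 8480.3 TPM, with mean CPM ranks 5 and 6. The transcripts share 58.8% of the 50-base windows of Hspa1a, so the split of their reads is uncertain and the pair is better read as 1 measurement. Their promoters are shown to make the likeness visible, from chr17:34972157-34972406 for Hspa1a and chr17:34959239-34959488 for Hspa1b, both on the minus strand of GRCm38.p6 (RefSeq). Capitals mark the 3 of 250 positions at which they differ.
Hspa1a: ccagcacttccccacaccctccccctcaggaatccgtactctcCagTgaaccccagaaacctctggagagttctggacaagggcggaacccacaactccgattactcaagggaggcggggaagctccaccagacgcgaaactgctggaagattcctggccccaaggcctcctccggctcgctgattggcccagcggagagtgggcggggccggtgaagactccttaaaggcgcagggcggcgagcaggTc
Hspa1b: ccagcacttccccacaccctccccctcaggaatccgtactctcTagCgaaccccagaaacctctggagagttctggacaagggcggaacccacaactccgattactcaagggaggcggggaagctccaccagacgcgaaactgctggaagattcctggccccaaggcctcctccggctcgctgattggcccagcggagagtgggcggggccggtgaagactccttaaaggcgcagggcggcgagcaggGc
The same caution holds for the haemoglobin pairs Hba-a1 with Hba-a2 and Hbb-bs with Hbb-bt, which share 67.5% and 65.8% of windows. Lyz2 shares 15.4% of its windows with Lyz1. A chromosome 1 pseudogene of mitochondrial sequence, Gm28437, is listed at 5795, 5379 and 4603 CPM although every 50-base window of it also occurs in mitochondrial transcripts.

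Catecholamines are the transmitters through which sympathetic nerves act on fat. Adrb1, an adrenergic receptor, stood at 2.61, 4.05 and 1.60 TPM. Adrb3, the receptor of adipocytes, stood at 5.47, 0.787 and 8.06 TPM, under the background level of HFD 2. Maoa, an enzyme that breaks down noradrenaline, stood at 29.1, 35.7 and 38.3 TPM. Slc6a2, the noradrenaline transporter, had 37, 3 and 6 counts in HFD 1, 2 and 3 and exceeded the background level in HFD 1 alone. Th and Dbh, the enzymes of noradrenaline synthesis, had 0 counts in every library.

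Transcripts of other cell types were present at lower summed levels. In bulk samples, fewer cells of a type and less RNA per cell cannot be told apart, and several of these genes are also expressed by macrophages. The 21 endothelial genes summed to 0.0981, 0.0878 and 0.0776 times the macrophage identity list in TPM. The 20 fibroblast genes summed to 0.172, 0.0964 and 0.113 times, and Gsn, which encodes an actin-cutting protein that macrophages also make, was 54.3% of that sum. The pericyte and smooth muscle list stood at 0.0446, 0.0352 and 0.0259 times and the adipocyte list at 0.0856, 0.0353 and 0.0744 times. The T, B and NK cell lists together stood at 0.0192, 0.0152 and 0.0191 times. HFD 1 had the highest value of each of these 5 ratios, with HFD 3 level with it for the lymphocyte lists. On the CPM scale the mean ratios were larger, 0.162 for the endothelial, 0.274 for the fibroblast, 0.0617 for the pericyte, 0.110 for the adipocyte and 0.0226 for the lymphocyte lists. Over the defining markers alone the endothelial, pericyte, adipocyte and lymphocyte ratios were 0.155, 0.324, 0.267 and 0.152. There the macrophage list was cut to its defining markers as well. These values thus have another denominator than those above and do not tell that more of these transcripts were present.

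Single markers of other cell types ranged from well below Adgre1 to above it. Pecam1, an adhesion protein of endothelium and some leukocytes, stood at 253, 262 and 246 TPM, and Cdh5, the cadherin of endothelial junctions, at 65.4, 77.6 and 63.9 TPM, or 0.159, 0.160 and 0.126 times Adgre1. Dcn, a matrix proteoglycan of fibroblasts, stood at 563, 288 and 349 TPM, or 1.37, 0.595 and 0.691 times Adgre1. Pdgfra, the growth factor receptor of adipose progenitors, stood at 14.2, 8.85 and 9.39 TPM. Both were highest in HFD 1. Adipoq, the adipocyte hormone adiponectin, stood at 174, 75.9 and 186 TPM, lowest in HFD 2. Acta2, smooth muscle actin, stood at 1099, 985 and 715 TPM, above Adgre1 in every library (2.68, 2.04 and 1.41 times). Acta2 alone was 52.4% of the summed TPM of the 13 pericyte and smooth muscle genes, whose median member stood at 30.1 TPM. Cpa3, a mast cell protease, stood at 124, 56.1 and 107 TPM. Hbb-bs, a beta globin, stood at 3671, 2033 and 3326 TPM, and the 4 globin genes took 0.260, 0.133 and 0.212% of counts.

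**Figure D3:**
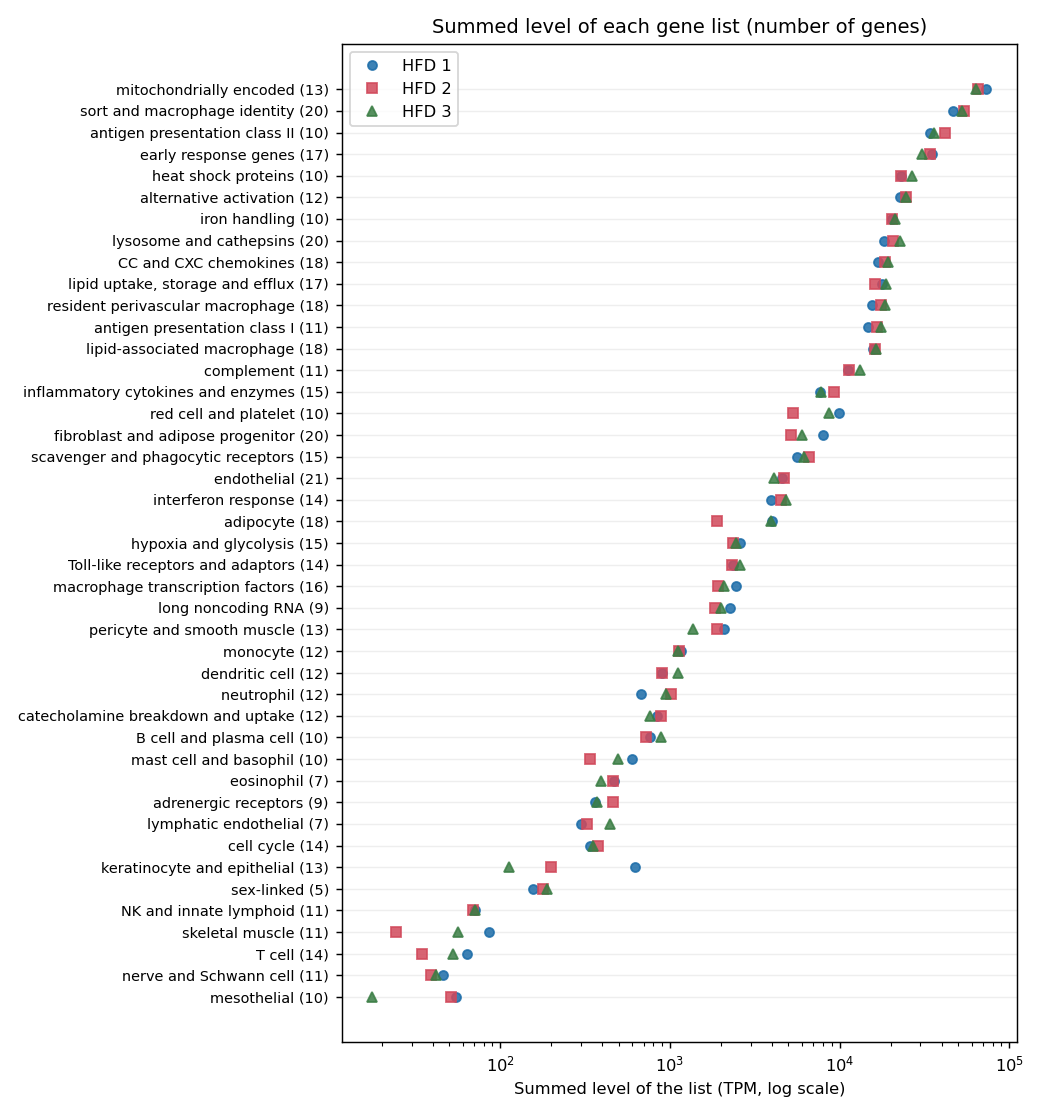
Summed TPM of each gene list on a log scale, 1 point per library, with the number of matched genes in brackets. The macrophage identity list lies between 46584 and 53939 TPM, the endothelial list between 4105 and 4735 TPM, and the keratinocyte and epithelial list spreads from 113 TPM in HFD 3 to 620.1 TPM in HFD 1.

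Markers of other blood cell lineages and of mesothelium ranged from 0 counts to well above the background level. Cd3e, a chain of the T cell receptor complex, stood at 2.28, 0.852 and 0.868 TPM and Cd3d at 3.64, 0.451 and 0.925 TPM, and neither exceeded the background level in all 3 libraries. Of 14 T cell genes 7 did. Ncr1, a receptor of natural killer cells, stood at 3.19, 4.91 and 4.12 TPM, and 10 of 11 genes of natural killer and innate lymphoid cells exceeded the background level in every library. Ighm, the immunoglobulin M heavy chain of B cells, was higher, at 344, 369 and 401 TPM. Ly6g, which marks neutrophils, had 0, 6 and 2 counts, while the neutrophil proteins S100a8 and S100a9, also made by monocytes, stood at 117, 243 and 137 TPM and 205, 390.1 and 279.7 TPM. Epx, the eosinophil peroxidase, had 7, 0 and 0 counts. Xcr1 and Clec9a, receptors of conventional dendritic cells, stood at 1.67, 1.52 and 2.01 TPM and 1.75, 2.30 and 2.32 TPM, and Cd209a, a lectin of dendritic cells and some macrophages, at 404, 433 and 529 TPM. Of 10 mesothelial genes 2 exceeded the background level in every library, and Wt1, a mesothelial transcription factor, had 0, 1 and 0 counts. A gene at 0 counts may still be expressed at a level too low to be counted. Xist, expressed from the inactive X chromosome, had 1, 8 and 1 counts and Ddx3y, on the Y chromosome, 154, 178 and 193 CPM, and the labels give no sex.

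The spread between libraries was small for most genes and larger than counting error. Over 9090 protein-coding genes with a mean of at least 10 CPM the median CV was 0.110, where counting error alone would give 0.0403, and 84.6% of these genes had a CV under 0.2. The median CV was 0.134 for genes from 10 to 30 CPM, 0.0852 for genes from 300 to 1000 CPM and 0.111 for genes from 1000 CPM up. edgeR's common biological coefficient of variation, which leaves counting error out, was 0.214 over 15145 genes. Pearson's correlation of log2 CPM across 9445 genes was 0.963 for HFD 1 with HFD 2, 0.972 for HFD 1 with HFD 3 and 0.976 for HFD 2 with HFD 3. These are correlations across genes, which are no independent replicates, and they carry no p. Chi-square per degree of freedom between pairs of libraries was 27.2 to 40.4, far above the value of 1 that sampling noise gives.

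The steadiest abundant genes included several with known macrophage roles. Fli1, an ETS family transcription factor, had 141, 141 and 139.9 CPM in HFD 1, 2 and 3. Axl, a receptor for dying cells, had 187, 187 and 186 CPM, and Pld3, a lysosomal nuclease, had 219, 218 and 218 CPM. Their CVs lay under counting error, and among so many genes some lie that low: 9.47% of the 9090 genes did. Among the identity markers the CV was 0.0209 for Cd68, 0.0615 for Lyz2, 0.0801 for Adgre1, 0.104 for Cd74, 0.254 for Itgam and 0.392 for Fcgr1, a high-affinity antibody receptor at 35.9, 41.1 and 74.8 TPM. The macrophage markers ranged from steadier to more variable than the median gene.

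**Figure D4:**
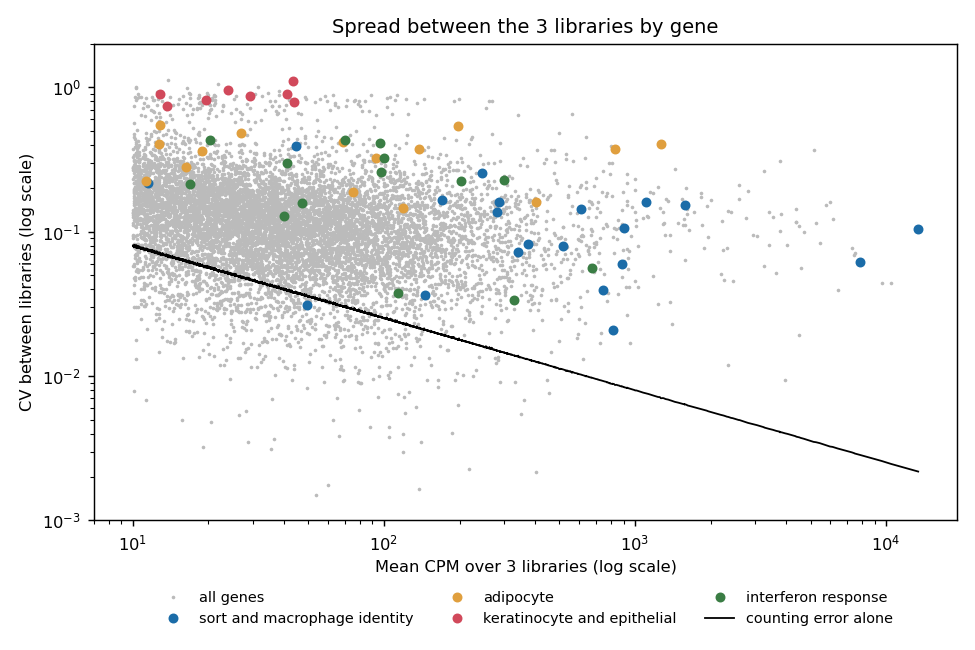
CV between the 3 libraries against mean CPM, both on log scales, 1 point per gene with a mean of at least 10 CPM. Coloured points are members of 4 gene lists and the line is counting error alone. Keratinocyte genes lie near a CV of 1, most adipocyte genes above the grey cloud's median, and the macrophage identity genes within the cloud.

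Epidermal genes stood apart in HFD 1. Of 9445 genes with a mean of at least 10 CPM, 27 (0.286%) were at least 2-fold higher in HFD 1 than in both other libraries. Krt10, a keratin of differentiated epidermis, had 98.3, 20.3 and 11.3 CPM in HFD 1, 2 and 3. Krt15 and Krt14, keratins of basal epidermis, had 84.0, 20.6 and 18.8 CPM and 82.1, 34.9 and 14.3 CPM, and Calm4, a calmodulin-like skin protein, had 31.7, 6.44 and 3.35 CPM. Each was highest in HFD 1 and lowest in HFD 3. Of the 27 genes 11, Calm4 among them, had a mean under 10 CPM in the other libraries and so passed the minimum only through HFD 1. All 13 keratinocyte and epithelial genes were highest in HFD 1, with no filter on level, and 12 of 13 lowest in HFD 3. The 8 of 13 with a mean of at least 10 CPM reached that mean partly through HFD 1 itself, and all 8 were among the 27 genes. The summed level of the 13 genes was 620.1, 198 and 113 TPM, so that even in HFD 1 it was small beside the macrophage list. Also highest in HFD 1 were 18 of 20 fibroblast genes, 7 of 10 mast cell genes and 12 of 13 mitochondrially encoded genes. So were 10 of 11 skeletal muscle genes, most of them at low levels. Of these 11, 1 had a mean of at least 10 CPM and 5 exceeded the background level in every library. The share of all genes was 38.8%, taken over genes with a mean of at least 10 CPM, while these list counts had no minimum level. HFD 1 also had the lowest CPM of 14 of 20 macrophage identity genes, against 34.8% of all genes. The part of non-macrophage RNA in the lower macrophage values of HFD 1 was not tested.

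HFD 2 had lower levels of adipocyte genes and more counts on silent gene families and pseudogenes. In HFD 2, 26 genes (0.275%) were at least 2-fold lower than in both others, all of them protein-coding. Cfd, the adipocyte protease adipsin, had 279, 77.3 and 234 CPM in HFD 1, 2 and 3, Adipoq had 84.5, 35.5 and 85.8 CPM, and Plin1, the coat protein of lipid droplets, had 17.8, 4.78 and 16.0 CPM. All 3 genes were at least 2-fold lower in HFD 2 than in either other library. Of 18 adipocyte genes 15 had their lowest CPM in HFD 2 and 0 their highest, where 33.0% and 26.1% of all genes did. Another 127 genes (1.34%) were at least 2-fold higher in HFD 2, comprising 28 protein-coding genes, 51 pseudogenes, 43 other noncoding genes and 5 without an annotation entry. Of all 9445 genes compared, 9090 were protein-coding. Of the 127, 22 belonged to the silent families. The shares of silent families and of pseudogenes among the 9445 genes are not reported here. Olfr1307, an olfactory receptor gene, had 16.7, 94.8 and 33.4 CPM, and Vmn1r91, a vomeronasal receptor gene, 2.03, 21.7 and 7.21 CPM. Of the 127 genes 37, Vmn1r91 among them, had a mean under 10 CPM in the other libraries and so passed the minimum only through HFD 2. Processed pseudogenes took 0.247, 0.645 and 0.303% of counts. Of the 51 genes (0.54%) at least 2-fold lower in HFD 1 than in both others, 37 were among these 127, so for such genes the order was HFD 1, HFD 3, HFD 2 from low to high.

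HFD 3 had the fewest genes apart, 9 higher (0.0953%) and 20 lower (0.212%). The higher genes included interferon-induced ones. Oas2, a sensor of double-stranded RNA, had 54.2, 53.1 and 113 CPM in HFD 1, 2 and 3, Irf7, a transcription factor of the interferon response, had 52.3, 52.3 and 105 CPM, and Slfn1, a schlafen family gene, had 6.57, 6.51 and 24.5 CPM. All 3 genes were at least 2-fold higher in HFD 3 than in either other library, and HFD 1 and HFD 2 lay close together. Slfn1 passed the minimum mean of 10 CPM only through HFD 3, the only 1 of the 9 genes to do so. Of 14 interferon response genes 11 were highest in HFD 3, against 35.1% of all genes. The list did not move as 1 block: Ifit1, an interferon-induced RNA-binding protein, had 341, 325 and 319 CPM, and Isg15, a ubiquitin-like modifier, 38.2, 46.0 and 36.3 CPM. C6, a terminal complement component, had 68.4, 58.9 and 148 CPM and Vsig4, a complement receptor of resident macrophages, 10.9, 10.9 and 22.4 CPM, both also highest in HFD 3. Among the 20 lower genes were Krt14 and Sfn, a 14-3-3 protein of epithelium at 58.2, 20.5 and 9.07 CPM.

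**Figure D5:**
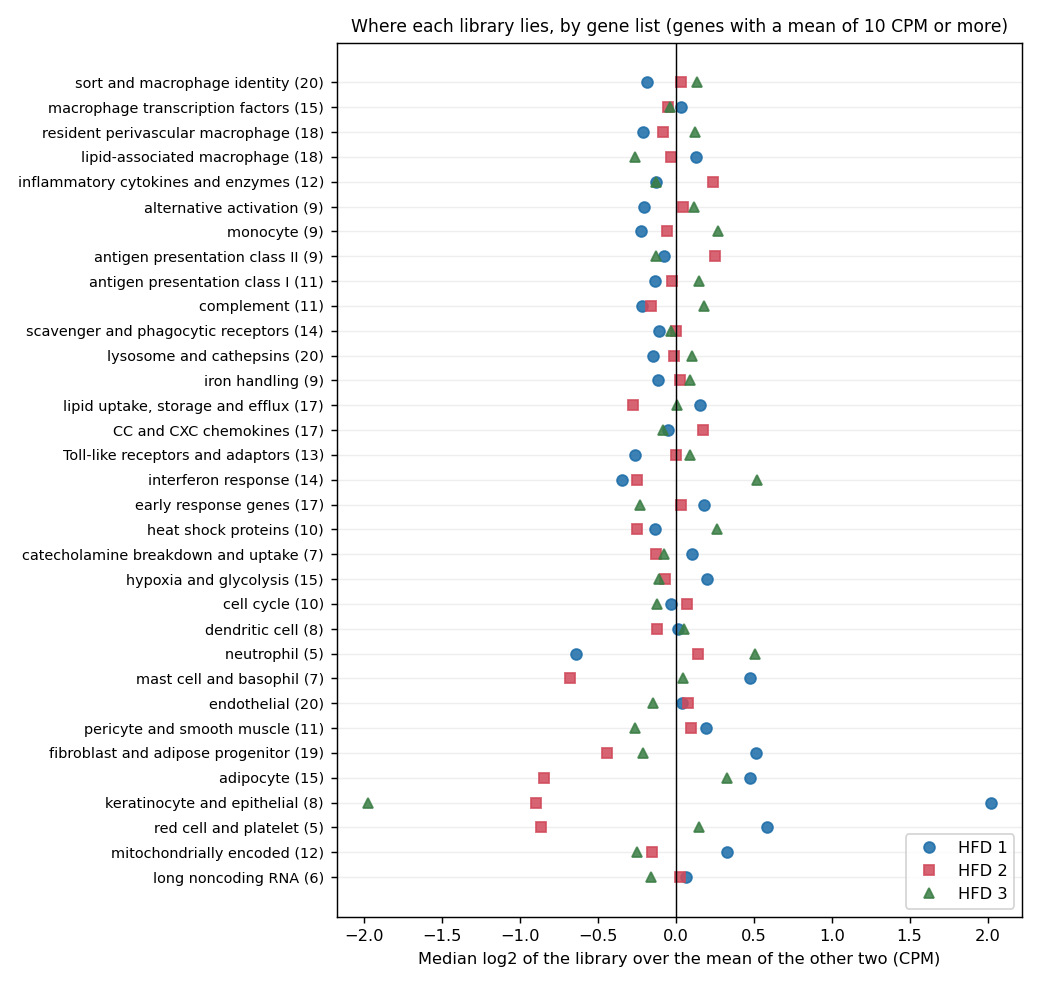
For each gene list, the median over its genes with a mean of at least 10 CPM (their number in brackets) of log2 CPM in a library against the mean of the others, 1 point per library; the vertical line is equality. The keratinocyte list lies at 2.02, -0.90 and -1.98 for HFD 1, 2 and 3, the adipocyte list at 0.48, -0.85 and 0.33, the interferon list at -0.34, -0.25 and 0.52 and the macrophage identity list at -0.19, 0.03 and 0.14.

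Over the same genes the median for all genes was 0.012, -0.034 and -0.0037, beside which the list medians can be read. The keratinocyte medians run over 8 genes that HFD 1 helped over the minimum, and over all 13 genes with no minimum, a choice made after the data were seen, they were 2.07, -0.97 and -2.01. For macrophage identity the widest gap was smaller than for the adipocyte and interferon lists. Each of these medians is a description of 3 libraries, and which of the differences would recur in further libraries was not tested.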

How the data were processed

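RNA sequencing counts of the 3 HFD libraries were used. The authors deposited estimated counts, 1 value per gene and library, and 33.3% to 34.9% of the genes detected in a library had a value with a fraction. The submitters' processing notes name fastp, HISAT2, StringTie and build mm10. Versions, the counting program and any use of strand were not given in the sources used here. Without strand, reads of a gene and an overlapping antisense gene cannot be told apart. Of the 6 named columns, 0 were without a sample and 3 (HFD+MGIG) were not analysed. The members of this description, the 43 gene lists and the naming rule were chosen with earlier results of these data known.

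Estimated counts were rounded to whole numbers, which changes single counts only. Of 57180 gene IDs, 51933 had a symbol, position and exon length in GENCODE M21 (mm10), and 521 of 523 list entries were matched. CPM used library totals of 14437531 to 16740374 counts, so that 1 count was worth less than 0.1 CPM. TPM used the length of the union of a gene's exons. Counts of list members highest or lowest in a library had no minimum level. The shares of all genes beside them ran over genes with a mean of at least 10 CPM. No test was made, since there is 1 group. Spread was taken as SD and CV over 3 libraries and as the common dispersion of edgeR 4.0.16 (R 4.3.3, filterByExpr, TMM factors), which was tested on simulated counts. Reads carry no molecular identifiers, so statements on counting error cover counting alone. Genes were named by a rule: the 5 markers Adgre1, Itgam, Cd74, Csf1r and Mrc1, the 20 highest by TPM and by CPM, list members by level, the 8 furthest apart in each library, and the 12 with the lowest CV. The text names a part of these, and some genes are not reported here. The background level (90th percentile of TPM over 1878 genes of silent families), the promoter motifs and the check of near-identical copies were added after the data were seen. Alternatives were TMM or DESeq2 1.42.0 size factors, other minimum levels, other lengths and scales, no division by length, and each library left out in turn.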

Additional observations from a re-analysis of the deposited data

How the results depend on the processing

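Of the alternative values computed, 62 stayed within the spread between libraries (or within 1.5 times for counts) and 29 moved. With CPM in place of TPM the endothelial, fibroblast, pericyte, adipocyte and lymphocyte to macrophage ratios were 0.162, 0.274, 0.0617, 0.110 and 0.0226, and the lipid-associated to resident ratio was 1.44. Without the most abundant member of each list the endothelial ratio was 0.125 and the lipid-associated to resident ratio 1.21. Over the defining markers only, chosen after the data were seen, the endothelial, pericyte, adipocyte, lymphocyte and lipid-associated to resident ratios were 0.155, 0.324, 0.267, 0.152 and 0.251. Both lists of each ratio were cut to their defining markers there. The macrophage identity sum was 46124 TPM with the longest transcript as length, 59959 TPM with only nuclear protein-coding genes in the scale, and 27698 TPM without Cd74. The 100 most abundant genes took 27.3% of counts with mitochondrially encoded genes left out. The median CV was 0.209 with no filter and 0.0896 from 100 CPM, and 0.0778 to 0.102 with 1 library left out, where it lay below the value over 3 libraries in each case. The common biological coefficient of variation was 0.302 with no filter and 0.194 to 0.237 with 1 library left out. The counts of genes at least 2-fold higher in HFD 1, 2 and 3 were 2955, 7411 and 2615 with no filter, and 2, 16 and 0 from 100 CPM. The causes of these moves were not tested, and those counts were not computed with a library left out. No paired analysis was possible because only 1 group was used and no result comes from a test.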
